A study of Homo sapiens with 12 samples.

Results

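The genes described here belong to the machinery by which a cell grips its surroundings: fibronectin (FN1) and vitronectin (VTN), the matrix proteins that integrins bind, the cytoplasmic proteins that tie integrins to actin (TLN1, TLN2, FERMT1, FERMT2, VCL, PXN, LIMS1, LIMS2), and one collagen, COL26A1. They were chosen by symbol, as every integrin, laminin and collagen chain together with a short list of integrin linkers and plasma ligands. The platform table that pairs the array's probe sets with symbols named 11 such genes of the 14884 genes it holds, each by 1 probe set. RefSeq holds 94 symbols of this kind, of which 26 are integrin chains, 12 are laminin chains and 44 are collagen chains. The table used here named 0 integrin chains, 0 laminin chains and 1 collagen chain, so the set is one of integrin ligands and linkers, and integrin, laminin and most collagen chains were not analysed here. PARVA and PARVB, the parvins of the same linker complex, were not analysed either.

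The samples were cultures of HuH-7, a hepatocyte-derived carcinoma line, transfected for 72 h at 9 nM with one of 4 oligonucleotides. A miR1908-5p mimic supplies the mature miRNA and was set against a mimic control (mimic ctl). A hairpin inhibitor of miR1908-5p was set against an inhibitor control (inhibitor ctl). Both controls carried the dye Dy547, and all 4 groups were otherwise the same cells in the same low-glucose medium with serum, with no untransfected group among them. Each treatment was given on 3 separate occasions, which makes 12 arrays with 1 array per treatment and occasion, and occasion 1 holds the repeats numbered 1 in every group. Values are normalized log2 signals, so a difference of 1 is a 2-fold difference in signal.

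Integrins are heterodimeric receptors with short cytoplasmic tails. Talins and kindlins (the FERMT genes) bind the beta tail and switch the receptor to its active form, vinculin and paxillin join the adhesion, and the PINCH proteins (LIMS1 and LIMS2) bind integrin-linked kinase, ILK, and parvin in a complex that sits on the tail. In liver, hepatocytes secrete plasma fibronectin and vitronectin in bulk, and both carry the arginine-glycine-aspartate motif that many integrins recognise. A miRNA silences transcripts that pair with its seed, the bases next to its 5′ end.

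The mature sequence that the mimic copies is shown first, from RefSeq (GRCh38.p14, chr11:61815209-61815229, minus strand), with the seed, bases 2 to 8, in capitals.
hsa-miR-1908-5p: cGGCGGGGacggcgauugguc
Every base of the seed is G or C. Promoter windows, from 250 bases before to 50 bases after a transcript's start, were listed by RefSeq for 10 of the 11 genes, in 17 windows. Those of FN1 and VTN are shown because these secreted ligands were the pair of matrix proteins with a higher signal under the mimic on every occasion. Capitals mark matches, on either strand, to 4 motifs: the TATA box (TATAAA), the CCAAT box (CCAAT), the cyclic AMP response element (TGACGTCA) and the GC box (GGGCGG). Where GC boxes adjoin or overlap, their capitals run together.
FN1, chr2:215436019-215436318, minus strand: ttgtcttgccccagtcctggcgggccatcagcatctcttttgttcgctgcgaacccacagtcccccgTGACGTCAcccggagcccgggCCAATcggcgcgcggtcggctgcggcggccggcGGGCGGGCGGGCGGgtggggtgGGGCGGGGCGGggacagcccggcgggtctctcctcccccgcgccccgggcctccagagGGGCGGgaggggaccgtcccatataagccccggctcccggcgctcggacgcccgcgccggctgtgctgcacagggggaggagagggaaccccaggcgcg
VTN, chr17:28370258-28370557, minus strand: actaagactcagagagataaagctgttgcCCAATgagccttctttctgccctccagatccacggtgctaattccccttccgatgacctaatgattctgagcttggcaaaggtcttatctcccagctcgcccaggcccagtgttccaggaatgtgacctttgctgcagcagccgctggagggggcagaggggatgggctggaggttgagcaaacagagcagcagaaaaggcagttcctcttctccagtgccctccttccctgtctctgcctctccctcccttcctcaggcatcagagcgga
The FN1 window was 76.7% G and C and held 1 cyclic AMP response element starting at position -183, 1 CCAAT box at -162 and 6 GC boxes between -129 and -49. The VTN window was 56% G and C and held 1 CCAAT box at -221, with no match to the other 3 motifs. Of all 35116 windows in the table, 1.85% held the cyclic AMP response element, 34.6% the CCAAT box, 45% the GC box and 11.5% the TATA box, and the median window was 58.7% G and C. Over the 17 windows of these genes the same motifs were found in 1, 5, 7 and 2 windows. These matches describe the letters of the windows.

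All 11 genes had a mean signal above the median of all 53617 probe sets, which was 5.03. The lowest was LIMS2, with a mean of 5.24, whose 12 arrays ran between 4.99 and 5.54. Over named genes the median was higher, at 5.87. Among them LIMS2 stood at percentile 35.4, TLN2 at 51.3 and LIMS1 at 51.6. Of the hepatocyte marker list, 13 of 17 genes were named, and their mean signal per array was 11.2 to 11.4 in the mimic group and 11.04 to 11.4 in the mimic ctl group, matching the hepatocyte origin that the label gives. The corresponding means were 5.13 to 5.18 against 4.75 to 5.26 for 6 of 11 stellate cell and fibroblast markers, 4.84 to 5.10 against 4.83 to 5.11 for 6 of 9 endothelial markers, 5.96 to 6.30 against 6.09 to 6.29 for 7 of 10 leukocyte and platelet markers, and 6.95 to 7.56 against 7.05 to 7.55 for 4 of 5 cholangiocyte markers. Single markers lay far from these means. Over all 12 arrays the lowest hepatocyte marker averaged 6.97. The highest marker averaged 10.8 in the leukocyte and platelet list, 9.57 in the cholangiocyte, 6.38 in the endothelial and 6.07 in the stellate cell and fibroblast list. The arrays of occasion 3 in the mimic arm stood apart by a narrower spread across probe sets, with an SD of 1.95 for mimic and 1.98 for mimic ctl against 2.02 to 2.06 on the other 10 arrays, and the mimic difference of each of the 11 genes is given without this pair as well.

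The first comparison asks what the mimic does to these genes. No transcript of the set passed the test: 0 of 11 genes had an adjusted p under 0.05 in limma, where 0.0149% of all probe sets did, and 0 of 11 had an unadjusted p under 0.05, where 4.61% of all probe sets did. The limma adjusted p was 1.00 for each gene. The log2 differences, mimic minus mimic ctl, ran between -0.74 for FERMT1 and 0.31 for VTN with a median of 0.08, against a median of -0.03 over all named genes. Of the 11, 8 were above 0, against 49.5% of all probe sets. The median standard error over all probe sets was 0.20, and those of the 11 genes lay between 0.13 and 0.41.

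**Figure D1:**
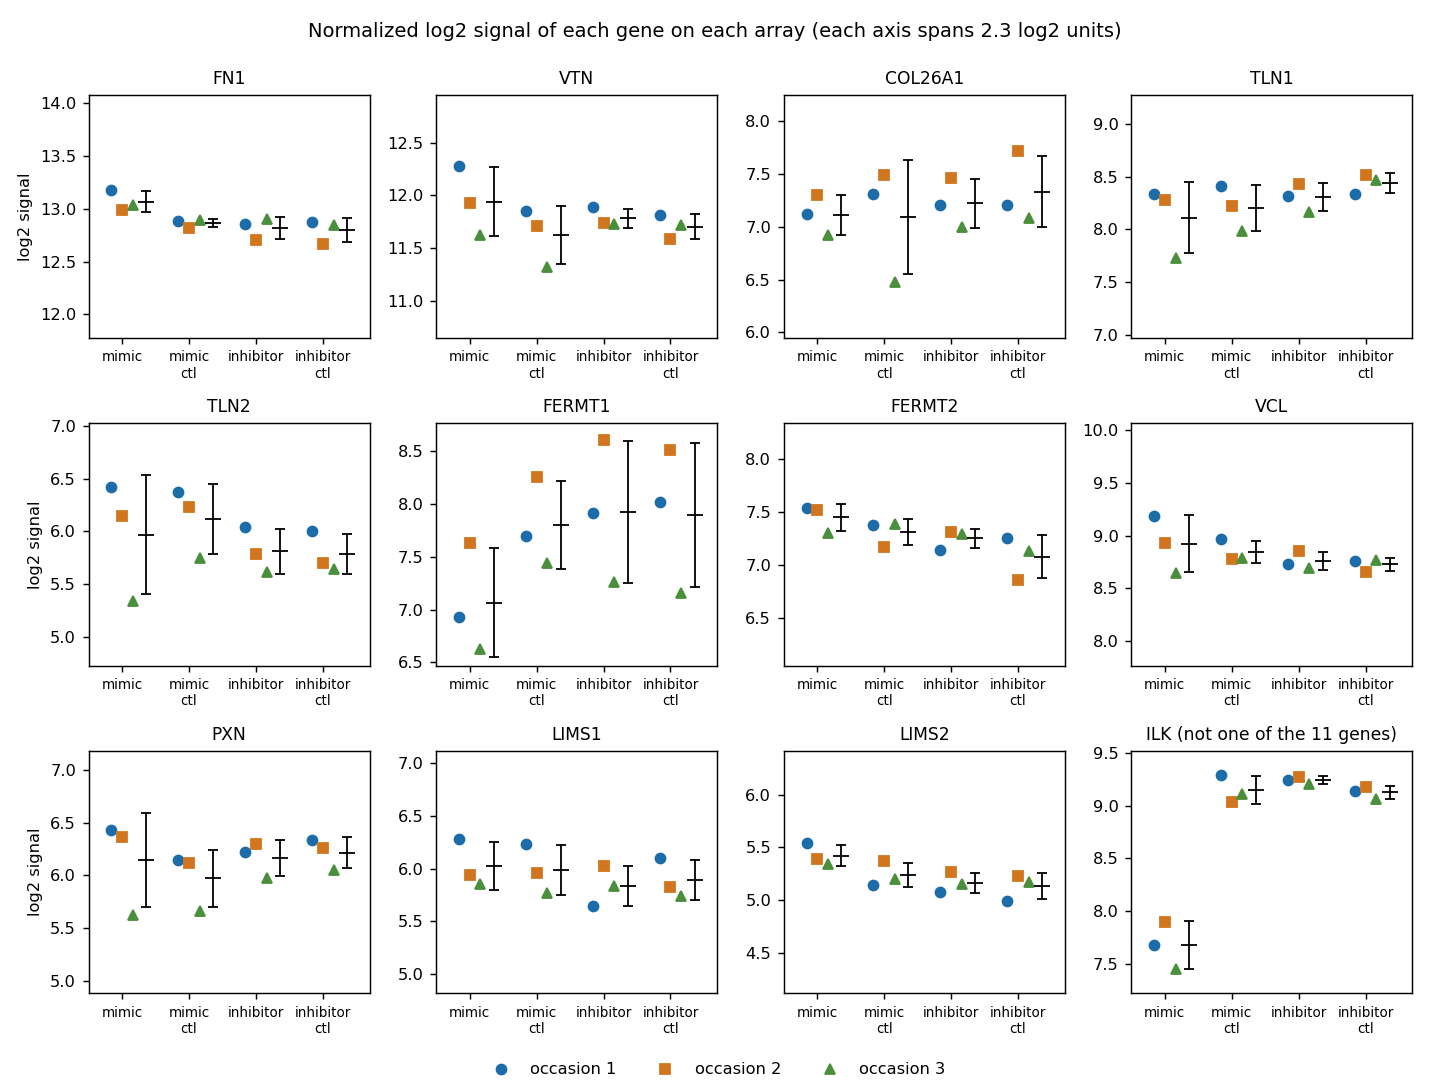
Normalized log2 signal (y axis) of each gene on each of the 12 arrays, by treatment (x axis). Symbols mark the occasion, and the bar to the right of each group is its mean with the SD (n = 3). Every axis spans the same log2 range. FERMT1 in mimic cells sits below the other groups on each occasion but its symbols spread by occasion within every group, whereas ILK is low on all 3 mimic arrays.

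FN1 gave signals of 13.18, 12.99 and 13.04 in mimic cells on occasions 1, 2 and 3, against 12.88, 12.82 and 12.90 in mimic ctl cells. All 3 mimic arrays lay above all 3 mimic ctl arrays, the only such separation among the 11 genes, where 4.24% of all probe sets were separated upward and 4.62% downward. The means were 13.1 ± 0.10 in mimic and 12.9 ± 0.041 in mimic ctl (SD, n = 3 each), a difference of 0.20 (SE 0.13, 95% interval -0.07 to 0.48), or 115% of the control signal. The limma p was 0.135 before adjustment, and the methods' two-tailed test on the same arrays gave 0.0340 before adjustment and 1.00 after it. An exact two-sided permutation test of the 3 against 3 arrays gave p = 0.1, the smallest such a design allows. Separated groups always give this value, so it adds nothing to the separation, and the test ignored the occasions. With the occasion as a block the interval was -0.04 to 0.44 and the limma p 0.0871 before adjustment and 0.700 after it. Within occasions, the differences were 0.30, 0.17 and 0.14. In RNA of a whole culture, a change in how many cells make a transcript and a change in its amount per cell cannot be told apart.

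VTN gave signals of 12.28, 11.93 and 11.62 in mimic cells, against 11.85, 11.71 and 11.32 in mimic ctl cells. The groups overlapped, and in both the signal was lower on each later occasion. The difference was 0.31 (SE 0.19, 95% interval -0.10 to 0.72), with a limma p of 0.121 before adjustment. With the occasion as a block the interval was -0.01 to 0.63 and this p 0.0531. Within occasions the mimic array was higher by 0.42, 0.22 and 0.30. FN1, VTN and LIMS2 were the 3 genes of 11 that were higher on all 3 occasions, where 14.1% of all probe sets were. Leaving out both mimic-arm arrays of occasion 3 left FN1 at 0.23 and VTN at 0.32.

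FERMT1 encodes kindlin-1, the kindlin of epithelial cells. It gave 6.93, 7.63 and 6.63 in mimic cells on occasions 1, 2 and 3, against 7.70, 8.26 and 7.44 in mimic ctl cells. The group ranges overlapped, since the highest mimic value, of occasion 2, exceeded the lowest mimic ctl value, of occasion 3, yet the mimic array was the lower one on every occasion, with differences of -0.77, -0.63 and -0.81. It was the only gene of 11 that was lower on all 3 occasions, where 15.9% of all probe sets were. The means were 7.06 ± 0.52 in mimic and 7.80 ± 0.42 in mimic ctl (SD, n = 3 each), so that the mimic signal was 60.1% of the control signal.

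The FERMT1 difference of -0.74 had an SE of 0.41 in the fit without occasions (95% interval -1.63 to 0.16), with a limma p of 0.0997 before adjustment. With the occasion as a block the SE was 0.15, the interval -1.07 to -0.41 and the limma p 0.000634 before adjustment and 0.217 after it. The block thus put 1 of 11 genes past an unadjusted p of 0.05, where it put 7.75% of all probe sets there, and none past the adjusted threshold. Without both mimic-arm arrays of occasion 3 the difference was -0.70.

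FERMT2, which encodes kindlin-2, the widely expressed kindlin, did not show this pattern. Its signals were 7.54, 7.52 and 7.30 in mimic cells, against 7.38, 7.17 and 7.38 in mimic ctl cells. The mimic array was higher on occasions 1 and 2 and lower on occasion 3, and the difference was 0.14 (SE 0.15, 95% interval -0.18 to 0.46), or 0.25 without the mimic-arm arrays of occasion 3. The kindlin differences were not tested against each other.

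The talins, which unclasp the integrin tails and link them to actin, showed no difference past the test. TLN1 gave 8.33, 8.28 and 7.72 in mimic cells, against 8.41, 8.22 and 7.98 in mimic ctl cells, a difference of -0.09 (95% interval -0.49 to 0.31). TLN2 gave 6.42, 6.15 and 5.34 in mimic cells, against 6.38, 6.23 and 5.74 in mimic ctl cells, a difference of -0.15 (95% interval -0.73 to 0.43). In both genes the arrays of occasion 3 were the lowest of each group, and both had the widest gap between treatments there, -0.26 for TLN1 and -0.41 for TLN2. Without this pair of arrays the differences were -0.01 for TLN1 and -0.02 for TLN2.

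Vinculin (VCL) strengthens the link between talin and actin, and paxillin (PXN) is a scaffold of focal adhesions. VCL gave 9.19, 8.93 and 8.65 in mimic cells, against 8.97, 8.78 and 8.79 in mimic ctl cells. PXN gave 6.43, 6.36 and 5.63 in mimic cells, against 6.14, 6.12 and 5.66 in mimic ctl cells. Both were higher under the mimic on occasions 1 and 2 and lower on occasion 3, where the VCL difference was -0.14 and the PXN difference -0.03. Over all arrays the differences were 0.08 for VCL (95% interval -0.25 to 0.41) and 0.17 for PXN (95% interval -0.32 to 0.65), and without the narrow pair of arrays they were 0.19 and 0.27.

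LIMS1 and LIMS2 encode PINCH-1 and PINCH-2, which join ILK to its partners. LIMS1 gave 6.28, 5.94 and 5.86 in mimic cells, against 6.24, 5.95 and 5.77 in mimic ctl cells, and its difference of 0.04 (95% interval -0.35 to 0.43) is uncertain in identity, because LIMS1 has near-identical copies in the genome whose transcripts the probes may share. LIMS2 gave 5.54, 5.39 and 5.34 in mimic cells, against 5.15, 5.37 and 5.20 in mimic ctl cells. Its difference of 0.18 (95% interval -0.10 to 0.47) was made mostly on occasion 1, where it was 0.39, against 0.02 and 0.14 on occasions 2 and 3. Without the narrow pair of arrays the differences were 0.02 for LIMS1 and 0.21 for LIMS2. ILK itself, which the platform table does not name and whose probe set was identified from the study's supplementary table, gave 7.68, 7.90 and 7.45 in mimic cells, against 9.29, 9.04 and 9.11 in mimic ctl cells. ILK fell by 1.47 on the log2 scale (SE 0.14; limma adjusted p = 0.0147), though the 6 arrays alone gave a limma adjusted p of 0.689, and without the narrow pair the value was -1.37 with a limma adjusted p of 0.111. Neither PINCH gene differed past the test.

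COL26A1, the only collagen chain named and outside the rule that chose the genes to be described singly, codes for a collagen that carries an EMI domain beside its collagenous stretches. It gave 7.12, 7.30 and 6.92 in mimic cells, against 7.31, 7.49 and 6.48 in mimic ctl cells. The mimic array was lower on occasions 1 and 2, with differences of -0.19 and -0.20, and higher on occasion 3, by 0.44. The mean difference of 0.02 (95% interval -0.56 to 0.59) therefore turned to -0.19 without both mimic-arm arrays of occasion 3.

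**Figure D2:**
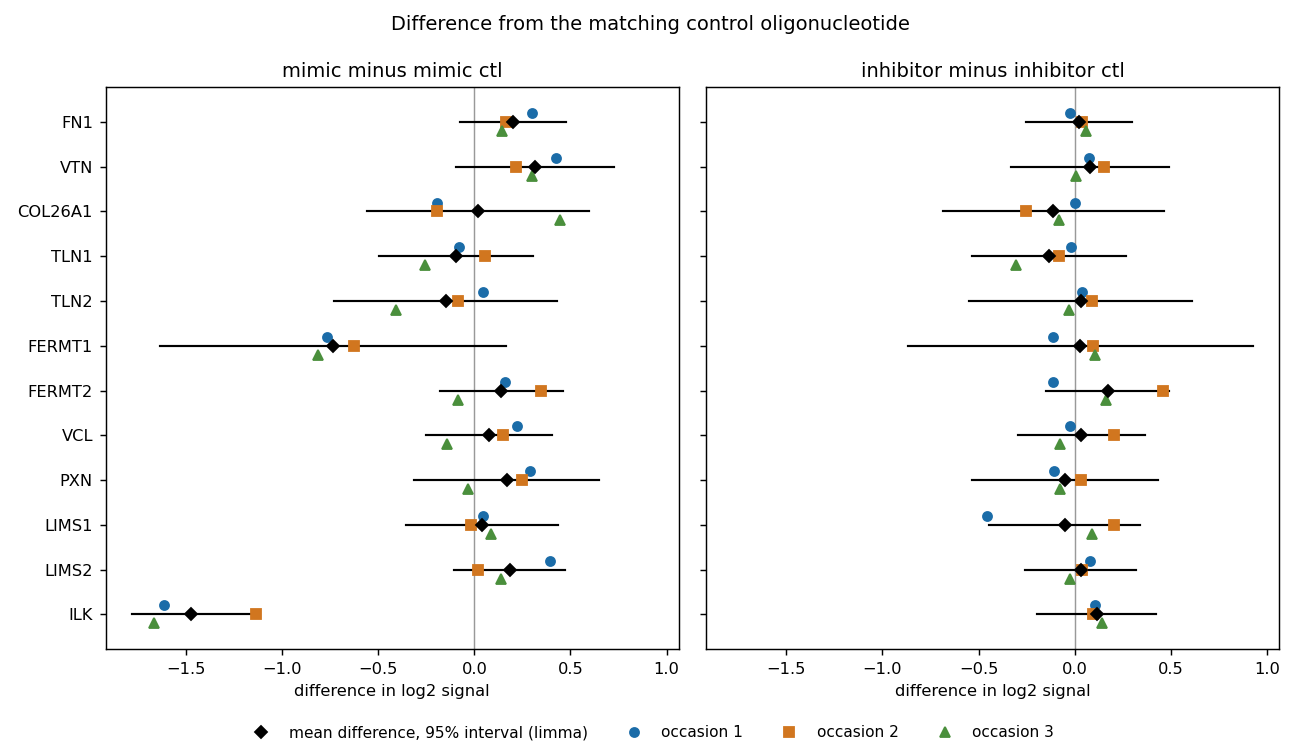
Difference in log2 signal (x axis) from the matching control for each gene (y axis), mimic minus mimic ctl on the left and inhibitor minus inhibitor ctl on the right. Diamonds are means over 3 occasions with limma's 95% interval from the fit without occasions, and coloured symbols are the single occasions. FERMT1 lies near -0.74 on each occasion of the mimic comparison but near 0 in the inhibitor comparison, and every interval drawn for the 11 genes includes 0. With the occasion as a block, not drawn, the FERMT1 interval under the mimic was -1.07 to -0.41. The blocked mimic intervals of the other genes of the 11 included 0.

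The inhibitor comparison asks whether blocking the miRNA moves the same genes. The 11 genes stayed within -0.14 for TLN1 and 0.17 for FERMT2, with 0 of 11 past an unadjusted p of 0.05 in limma, where 2.92% of all probe sets were, and 0 of 11 past the adjusted threshold, where 0.00187% were. No gene of the set had separated groups, against 3.71% of all probe sets separated upward and 4.29% downward. Of the 11, 7 were above 0, where 50.3% of all probe sets were. The median difference was 0.03, and 0.02 over all named genes.

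FERMT1 gave 7.91, 8.61 and 7.26 in inhibitor cells, against 8.02, 8.51 and 7.16 in inhibitor ctl cells. The arrays of one occasion lay within 0.11 of each other, while occasions 2 and 3 lay more than 1 apart in both groups. The difference was 0.03 (95% interval -0.87 to 0.93, and -0.30 to 0.36 with the occasion as a block). FN1 gave 12.85, 12.71 and 12.91 in inhibitor cells, against 12.88, 12.67 and 12.85 in inhibitor ctl cells, a difference of 0.02 (95% interval -0.25 to 0.30). VTN was at 11.89, 11.74 and 11.73 in inhibitor cells, against 11.81, 11.58 and 11.72 in inhibitor ctl cells. It was the only gene of the set higher on all 3 occasions, where 13.9% of all probe sets were, with a mean difference of 0.08 (95% interval -0.33 to 0.49).

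TLN1 gave 8.31, 8.43 and 8.17 in inhibitor cells, against 8.33, 8.52 and 8.47 in inhibitor ctl cells, and was the only one lower on all 3 occasions, where 13.5% of all probe sets were. FERMT2 gave 7.14, 7.32 and 7.29 in inhibitor cells, against 7.26, 6.85 and 7.13 in inhibitor ctl cells, so that its difference came mostly from the low control array of occasion 2. The mean difference was 0.17 (95% interval -0.15 to 0.49). For the other 6 genes the differences ran between -0.11 for COL26A1 and 0.03 for VCL.

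The response to the mimic was then set against the response to the inhibitor in one model, in which the value is the first difference minus the second. For FERMT1 it was -0.77 (SE 0.58, 95% interval -2.04 to 0.51), with a limma p of 0.213 before adjustment, and on the single occasions -0.65, -0.72 and -0.92. With the occasion as a block the interval was -1.23 to -0.30, with a limma p of 0.00464 before adjustment and 0.563 after it. That made 1 of 11 genes past an unadjusted p of 0.05 with the block, where 7.02% of all probe sets were, against 0 of 11 without it, where 4.24% were. FN1 stood at 0.18 (95% interval -0.21 to 0.57) and VTN at 0.24 (95% interval -0.35 to 0.82), both above 0 on all 3 occasions. The difference between the responses did not pass the adjusted threshold for any of the 11 genes, nor for any of the 53617 probe sets, of which 2276 had an unadjusted limma p under 0.05.

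The 2 control oligonucleotides show how far these genes differ between oligonucleotides that do not target miR1908-5p. Set against inhibitor ctl, mimic ctl cells differed by -0.24 for COL26A1 up to 0.34 for TLN2, a span wider than that of the inhibitor comparison. None of the 11 genes passed an unadjusted p of 0.05 in limma, where 5.28% of all probe sets did, or the adjusted threshold, where 0.00373% did. TLN2 gave 6.38, 6.23 and 5.74 in mimic ctl cells, against 6.0, 5.70 and 5.65 in inhibitor ctl cells, a difference of 0.34 (95% interval -0.24 to 0.92). Within occasions 1, 2 and 3 the TLN2 differences were 0.38, 0.54 and 0.10. Without the narrow pair of arrays the TLN2 difference was 0.52 with an unadjusted limma p of 0.0164 and an adjusted p of 0.754. In that fit 3445 of 53617 probe sets had an unadjusted p under 0.05. It kept the inhibitor ctl array of occasion 3, so the control groups no longer covered the same occasions and the 0.52 also takes in differences between occasions.

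VCL was the one gene with separated control groups, at 8.97, 8.78 and 8.79 in mimic ctl cells, against 8.76, 8.65 and 8.77 in inhibitor ctl cells, where 4.81% of all probe sets were separated upward and 5.72% downward. FERMT2, FN1, LIMS1, LIMS2, TLN2 and VCL, 6 of the 11, were higher in mimic ctl on all 3 occasions, where 15.2% of all probe sets were. PXN alone was lower on all 3, where 15.1% were. For FN1 this difference was 0.07 (95% interval -0.21 to 0.34), for LIMS2 0.11 (95% interval -0.18 to 0.39) and for FERMT2 0.23 (95% interval -0.09 to 0.55). The same mimic ctl arrays serve in the mimic comparison, so the values of these comparisons are not independent.

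**Figure D3:**
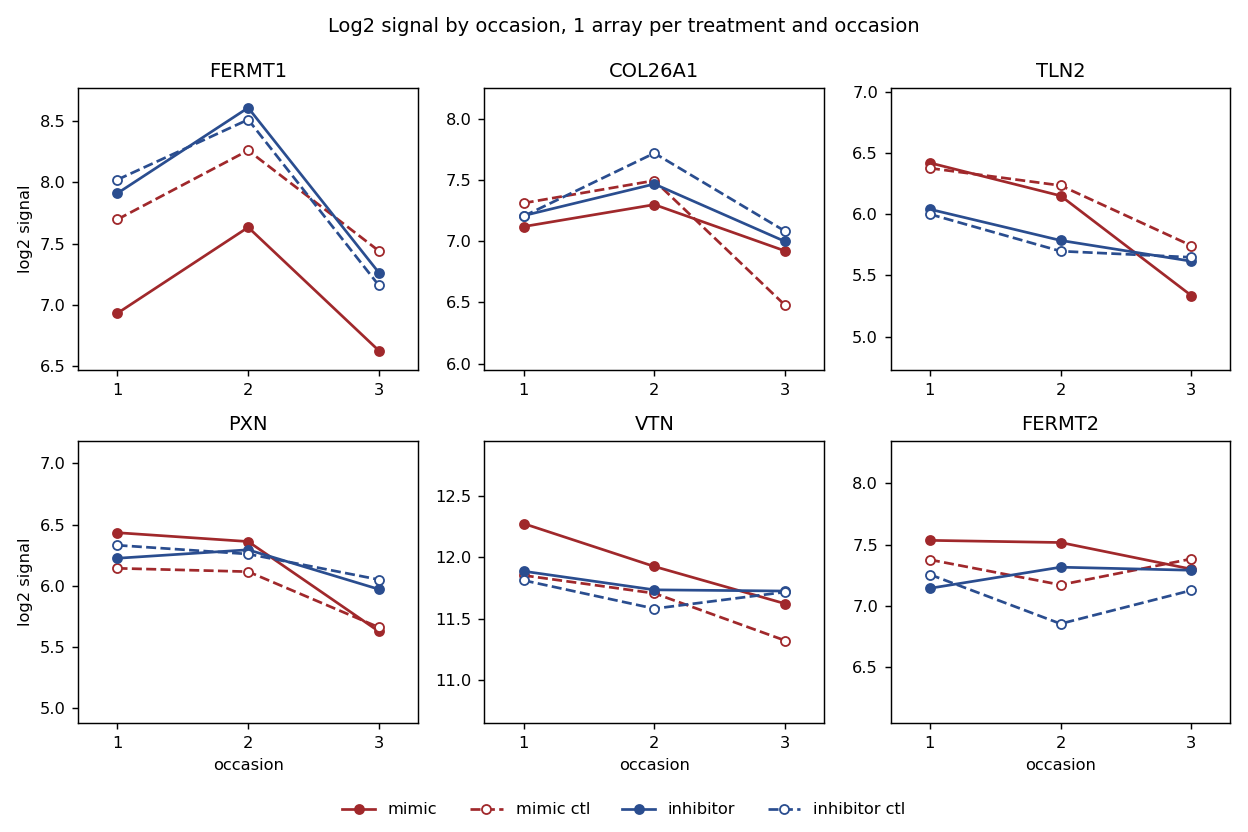
Log2 signal (y axis) on occasions 1 to 3 (x axis), 1 line per treatment, solid for mimic and inhibitor and dashed for their controls. In FERMT1 the 4 lines peak together on occasion 2 and end lowest on occasion 3, with the mimic line below the rest, while FERMT2 shows no shared course.

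These genes were also compared between the occasions, over the 4 treatments together. FERMT1 averaged 7.64 ± 0.49, 8.25 ± 0.44 and 7.12 ± 0.35 on occasions 1, 2 and 3 (SD over the 4 treatments). In a model of treatment and occasion its occasion effect had a limma adjusted p of 0.00469, the only one of 11 genes past the adjusted threshold, where 4.97% of all probe sets were. Occasion 3 lay -1.13 from occasion 2 (SE 0.13, limma adjusted p = 0.00317) and -0.52 from occasion 1 (limma adjusted p = 0.0413). The order, occasion 2 highest and occasion 3 lowest, was the same in all 4 treatments. With the narrow pair of arrays left out the adjusted p was 0.0458, and with the 6 inhibitor-arm arrays alone it was 0.287, a fit in which 0 of all probe sets passed.

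COL26A1, TLN2, PXN and VTN joined FERMT1 at an unadjusted p under 0.05, making 5 of 11, where 22.7% of all probe sets were. COL26A1 averaged 7.21 ± 0.078, 7.49 ± 0.17 and 6.87 ± 0.27 on occasions 1, 2 and 3 (limma adjusted p = 0.0652), in the same order as FERMT1 in every treatment. Taken alone, its occasion 3 lay -0.63 from occasion 2 (limma adjusted p = 0.0411), and its other pairs of occasions had limma adjusted p of 0.583 and 0.165. The p-values of pairs of occasions were adjusted over probe sets but not for the number of pairs. COL26A1, TLN2 and PXN did not pass the adjusted threshold in the occasion test, so their pairs are not calls. TLN2 averaged 6.21 ± 0.22, 5.97 ± 0.26 and 5.59 ± 0.18 (limma adjusted p = 0.0697), and its signal was lower on each later occasion in every treatment. Its occasion 3 lay -0.62 from occasion 1 (limma adjusted p = 0.0311), and its other pairs had limma adjusted p of 0.646 and 0.170. Without the narrow pair the unadjusted p of the occasion effect was 0.0129 for COL26A1 and 0.0259 for TLN2. FERMT1, COL26A1 and TLN2 were the 3 genes with a single order in all 4 treatments, where 3.95% of all probe sets had one.

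PXN averaged 6.28 ± 0.13, 6.26 ± 0.10 and 5.83 ± 0.21 on occasions 1, 2 and 3 (limma adjusted p = 0.0761). Its occasion 3 lay -0.46 from occasion 1 (limma adjusted p = 0.0494), and its other pairs had limma adjusted p of 0.966 and 0.0805. Its lowest values, 5.63 and 5.66, were the narrow pair of occasion 3, and without them its unadjusted p was 0.104. VTN averaged 11.96 ± 0.22, 11.74 ± 0.14 and 11.60 ± 0.19 (limma adjusted p = 0.211), and without this pair its unadjusted p was 0.116. FN1 averaged 12.95 ± 0.16, 12.80 ± 0.14 and 12.92 ± 0.081, with no difference past the test (limma adjusted p = 0.485).

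Around these genes, 4 lists of related genes were read from the same fits. The members of the lists were chosen with earlier results of these data known. Of 61 genes of integrin and focal adhesion signalling, 38 were named, and under the mimic 2 were lower and 1 higher at an unadjusted p under 0.05, where 4.81% of all named genes were. The lower ones were CSK, the kinase that restrains Src kinases, at -0.64 (SE 0.18), and TRIP6, a zyxin relative at focal adhesions, at -0.44 (SE 0.18), and the higher one was TGFB1I1, the paxillin relative Hic-5, at 0.37 (SE 0.17). None of the 38 passed the adjusted threshold, and the lowest limma adjusted p, for CSK, was 0.792. Their median was -0.06, against -0.03 over all named genes. With the occasion as a block the counts were 3 lower and 1 higher, where 8.96% of all named genes passed, the gene added being ZYX (zyxin) at -0.49. Without the narrow pair of arrays CSK alone passed, at -0.72, where 2338 of 53617 probe sets did. TRIP6 was then at -0.27 and TGFB1I1 at 0.42.

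Of 44 genes of basement membrane and matrix partners 37 were named. Under the mimic 2 were lower and 3 higher at an unadjusted p under 0.05, where 4.81% of all named genes were. BCAM, a receptor for laminin, stood at -0.43 (SE 0.15), NID1, which bridges laminin and collagen networks, at -0.45 (SE 0.17), and FGB, the fibrinogen beta chain, at 0.41 (SE 0.17). The other 2 higher genes, AGRN at 0.33 (SE 0.14) and THBS4 at 0.55 (SE 0.24), encode agrin and a thrombospondin and are named after their values were seen. The block gave 3 lower and 4 higher, adding HSPG2 at -0.52 and NTN4 at 0.46, where 8.96% of all named genes passed. Without the narrow pair 2 passed, NID1 at -0.40 and HSPG2 at -0.53, where 2338 of 53617 probe sets did. In that fit BCAM was at -0.23, FGB at 0.41, AGRN at 0.32 and THBS4 at 0.52. Of 44 genes of collagen folding, secretion and cross-linking 19 were named, of which CRTAP, part of the prolyl 3-hydroxylation complex, was lower at -0.42 (SE 0.17). BMP1, a protease that trims procollagen, stood at -0.24 (SE 0.15), and PCOLCE, its enhancer, at 0.23 (SE 0.16). The block gave 2 lower, with COLGALT1 at -0.36 beside CRTAP, and without the narrow pair CRTAP passed at -0.43 and PCOLCE at 0.41. Of 43 matrix proteases and their inhibitors 28 were named and 0 passed the unadjusted threshold, MMP13 coming nearest at -0.49 (SE 0.34) ahead of PLG at 0.22 and MMP16 at -0.18. MMP13 passed with the block (SE 0.20, an unadjusted limma p of 0.0386) and without the narrow pair, at -0.56 (an unadjusted limma p of 0.0206), where PLG was at 0.31 and MMP16 at -0.033. No gene of these 3 lists passed the adjusted threshold in limma, the lowest adjusted p being 0.943, for BCAM.

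Under the inhibitor 1 of the 38 signalling genes was higher at an unadjusted limma p under 0.05, the paxillin relative LPXN at 0.47 (SE 0.19), and 0 of the 37, 19 and 28 genes of the other lists were past it in either direction, where 1.81% of all named genes were. With the block, where 2.93% of all named genes passed, RECK was past it as well, at 0.41 (an unadjusted limma p of 0.0215). By occasion the signalling, basement membrane, collagen and protease lists held 2 of 38, 7 of 37, 1 of 19 and 5 of 28 genes at an adjusted limma p under 0.05, where 7.21% of all named genes were. Without the narrow pair these counts were 0, 1 (FBLN5, at an adjusted p of 0.0458), 0 and 0, while calls over all probe sets went down to 61, against 2665 with the pair, and with the inhibitor arms alone no probe set was called. Chosen from these values, the signalling genes were CD47 and TES, and the collagen gene was COLGALT1, which glycosylates collagen (limma adjusted p = 0.00330). The protease list gave MMP15, RECK, which restrains metalloproteases (limma adjusted p = 0.00394), and 3 tissue inhibitors of metalloproteases, TIMP1, TIMP3 and TIMP4. Among the basement membrane partners NPNT, a ligand of an integrin, had the lowest value (limma adjusted p = 0.00678).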

How the data were processed

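Total RNA of 12 HuH-7 cultures was hybridised to whole-transcript human gene arrays. The authors summarised each array with Affymetrix Expression Console and deposited 1 table of normalized log2 values for 53617 probe sets. The sources used here give neither its version and settings nor the genome build of the array. Arrays have no read depth, so precision rests on 3 arrays per group.

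Probe sets were named through the platform table, which gave 1 symbol to 16098 of them (30.0%). For a gene with several, the one with the highest mean stood for it. limma 3.58.1 (R 4.3.3) was fitted to all probe sets and 4 groups with 1 shared spread, and p-values were adjusted by Benjamini-Hochberg over all probe sets. A gene was called at an adjusted p under 0.05. Occasions were tested by a moderated F test with treatment as covariate. The scripts were tested on simulated data.

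By the series design, a repeat number marks an occasion shared by all groups, which pairs the arrays. Deviations from group means correlated with a median r of 0.24 over 18 same-number pairs and -0.14 over 36 others. Blocked values stand beside calls they change. The repeats are separate transfections of 1 cell line.

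The 11 genes, the lists and the tests were chosen with earlier results of these data known. Described singly are all integrin linkers and plasma ligands, ILK, genes past a threshold, and up to 3 genes per related list by lowest p. Alternatives tried were the block, quantile normalization, a common median, no dim probe sets, fewer arrays, array weights, another prior, the methods' two-tailed test, probe set means and leaving out arrays. Promoter and miRNA sequences come from RefSeq on GRCh38.p14.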

Additional observations from a re-analysis of the deposited data

How the results depend on the processing

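At an unadjusted p under 0.05, 0 of the 11 genes were called in the mimic comparison. That count was 1 with the replicate block (FERMT1), 1 with only the 6 arrays compared (FERMT1), 1 with array weights (VTN), 1 with the methods' two-tailed test (FN1), and between 0 and 2 when single arrays or occasions were left out: FERMT1 without the mimic array of occasion 2, and PXN and VTN without that of occasion 3. Over all probe sets the block gave 4154 unadjusted calls, against 2474 without it, and array weights gave 3934. Leaving out the mimic array of occasion 2 gave 3235, and leaving out that of occasion 3 gave 2743. Adjusted calls were 8, against 24 with the block, 4 with a common median, 14 with another prior, 26 without dim probe sets or with array weights, and 0 with only the arrays compared or with the methods' two-tailed test (1924 and 2166 at an unadjusted p). None was one of the 11 genes. The ILK call was lost with both of the last settings, without the narrow pair of arrays (limma adjusted p = 0.111), without any one occasion, and without any single array of the mimic arm except the mimic array of occasion 2.

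Between the control groups the count of 0 became 1 (TLN2) without both mimic-arm arrays of occasion 3. Over all probe sets that setting gave 3445 unadjusted calls, against 2833 with all arrays. The count lay between 0 and 1 when arrays or occasions were left out. For the difference between responses the replicate block gave 1 (FERMT1). The inhibitor count stayed at 0 under every alternative run. The occasion count of 1 was 2 with a common median (FERMT1 and COL26A1), 4 without dim probe sets (PXN and TLN2 as well) and 0 with only the inhibitor-arm arrays. Over all 53617 probe sets, occasion calls numbered 2665, against 2694 with a common median. They numbered 61 without the narrow pair and 0 with the inhibitor arms alone. Without dim probe sets 4507 of the 26809 probe sets kept were called, a larger share than in the main fit. Leaving out single arrays kept FERMT1 at an adjusted p between 0.0106 and 0.0212. The cause of these changes in count was not tested, and some of these settings also used fewer arrays or probe sets.

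Of 719 single-gene values under alternatives, 35 changed sign, none at an unadjusted p under 0.05. With array weights the mimic difference was -0.11 for COL26A1 and 0.010 for TLN1, and COL26A1 was at -0.19 without the narrow pair. With quantile normalization the inhibitor difference was -0.010 for FERMT1 and -0.0050 for FN1. Leaving out arrays or occasions moved the mimic difference between -0.29 and 0.22 for COL26A1, -0.089 and 0.16 for LIMS1, -0.21 and 0.10 for TLN1, -0.37 and 0.17 for TLN2, and -0.056 and 0.21 for VCL. It moved the inhibitor difference between -0.24 and 0.081 for COL26A1, -0.34 and 0.36 for FERMT1, -0.040 and 0.082 for FN1, -0.038 and 0.079 for LIMS2, -0.18 and 0.15 for LIMS1, -0.13 and 0.046 for PXN, -0.081 and 0.14 for TLN2, and -0.050 and 0.091 for VCL. FERMT1 under the mimic stayed between -1.02 and -0.51, FN1 between 0.14 and 0.24, and VTN between 0.15 and 0.47. Leaving out a single array leaves its occasion without a pair, so all these ranges also take in differences between occasions. Within occasions 1, 2 and 3 the mimic differences were -0.77, -0.63 and -0.81 for FERMT1, 0.30, 0.17 and 0.14 for FN1, and 0.42, 0.22 and 0.30 for VTN. The fit of only the arrays compared and the methods' two-tailed test were not run for the difference between responses, which uses all 12 arrays.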
